A study of Bos taurus with 16 samples.

Results

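Zinc finger genes were followed in liver and skeletal muscle of Holstein bull calves that had begun as embryos of different origin. The genes were the 60 Ensembl IDs, of 27607 in the table, that the supplementary tables of the paper pair with a symbol starting ZNF, ZBTB, ZSCAN, ZKSCAN or ZFP. The prefix ZNF gave 40 of them, ZBTB 11, ZFP 5, ZKSCAN 3 and ZSCAN 1. They are 15.4% of the 390 symbols with these prefixes in the RefSeq annotation of cattle, so most genes of these families could not be named here. In the IVP group, 4 calves came from embryos produced in vitro. In the MOET group, 4 calves came from embryos conceived in vivo after multiple ovulation and moved to recipients. All were male, were reared alike after birth and gave both organs at 98 to 104 days of age, except MOET calf 3213, which was 144 days old. All IVP calves shared a dam, and 2 IVP and 2 MOET calves shared both dam and sire, so parentage and embryo origin were not fully separate. The question was whether genes of this class differed between IVP and MOET calves, in which organ and in which direction.

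Most of these proteins hold C2H2 zinc fingers, small folds around a zinc ion that read DNA or RNA bases in tandem. What a protein does at its target depends largely on the domain beside the fingers. A BTB domain pairs proteins and recruits corepressors, a KRAB domain recruits the TRIM28 silencing machinery, and a SCAN domain mainly joins zinc finger proteins to each other. By symbol and textbook role, 10 of the genes were placed in a BTB group, 13 in a KRAB group, 8 in a SCAN group and 2 in the FOG group of GATA cofactors. There were 7 that act on RNA, ribosomes or the spindle and 20 others. The BTB group holds only genes with a ZBTB symbol, and BTB genes below means this group. A gene with this domain and another symbol is counted in another group. ZBTB8OS, in the group of RNA genes, has a ZBTB symbol only from its place beside a ZBTB gene and encodes archease, a cofactor of tRNA ligation. No sequence of these genes is printed, since none was in the files used here.

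The 16 libraries of polyadenylated, unstranded RNA held 22758137 to 24667728 counts in liver and 23677247 to 25626474 in muscle. Levels are given as CPM (counts scaled to a common library size after TMM normalization within an organ). They depend on gene length, so they are compared between calves of an organ and not between genes. CPM of liver and of muscle share no scale, and the test of muscle against liver used values scaled over both organs. Muscle libraries held 106000 to 140000 CPM of the 4 skeletal muscle markers that could be named (ACTA1, MYH2, MYH7 and TNNT3), and liver libraries at most 0.694 CPM. In muscle these markers did not go one way. MYH7 and MYH2 were higher in every IVP calf (log2 fold change 1.65 and 0.79). ACTA1 and TNNT3 had log2 fold changes of -0.29 and -0.37 with overlapping groups. The hepatocyte markers APOA1, APOB, TTR and PCK1 summed to between 8700 and 11000 CPM in the liver of IVP calves and between 6860 and 7190 CPM in that of MOET calves, but did not go one way. APOA1 and TTR were higher in every IVP liver (log2 fold change 1.66 and 0.61), PCK1 overlapped (0.33), and APOB was lower in every IVP liver (-0.67), at 641 to 950 CPM against 1240 to 1460 CPM. The leukocyte markers CD74 and CSF1R summed to 761 to 1240 CPM in the liver of IVP calves and 648 to 735 CPM in that of MOET calves. The summed fibroblast markers (COL1A1, COL3A1 and DCN) were lower in IVP calves, at 460 to 611 against 724 to 764 CPM in liver and 686 to 1000 against 1140 to 1430 CPM in muscle. COL1A1 and COL3A1 were lower in every IVP calf in both organs. DCN was lower in every IVP muscle (log2 fold change -0.47), but in liver its groups overlapped and its log2 fold change was 0. The part of these markers in the differences described here was not tested, and fewer cells of a type cannot be told apart from less RNA per cell.

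The liver library of IVP calf 5841 stood apart, with a median deviation of 0.357 on the log2 scale from the rest of its group, against 0.104 to 0.234 for the other calves but 3213. Calf 3213 deviated by only 0.0177 in liver and 0.0112 in muscle from the average of the remaining MOET calves and was not counted as a separate replicate. Means and SDs therefore cover 4 IVP and 3 MOET calves. The edgeR and DESeq2 tests did include calf 3213, except where it is said to be left out. Values of single calves are given in the order 3208, 3209, 5833 and 5841 for IVP and 3217, 3218 and 5932 for MOET. FDR is the Benjamini-Hochberg adjusted p of edgeR's quasi-likelihood test over all genes tested, with age as covariate.

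The way the symbols were obtained bears on every count. Of the 60 genes, 35 are in liver tables that rest on expression alone or on expression and DNA methylation combined, 14 in the muscle table of the combined kind, 2 in the combined tables of both organs and 9 only in the table of DNA methylation in liver. The tables were made from these calves, so the values of a gene are a description and not independent evidence of its direction. Several tables are held here only in part, so a gene may have been listed for the other organ or the other measure too. Shares are therefore also given over all genes that the tables name.

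In liver, zinc finger genes leaned towards lower levels in IVP calves, but none passed the test. Of 58 genes tested, 44 had a log2 fold change below 0 and 14 above 0, with a median of -0.30. Over all 14290 genes tested the median was 0.00, and 49.7% were above 0 (52.2% of the named genes) against 24.1% of the zinc finger genes. By edgeR's quasi-likelihood test 0 of 58 had an FDR under 0.05, and the lowest FDR was 0.125, where 0.035% of all genes were called. At an unadjusted p under 0.05 there were 25, of which 20 were lower and 5 higher in IVP calves (43.1% of the zinc finger genes, 29.8% of all genes and 57.4% of the named genes). The levels of all 4 IVP calves lay below those of the 3 MOET calves for 29 genes and above them for 9, or 65.5% without overlap, against 33.1% of all genes and 66% of the named genes. The shares of zinc finger genes past these marks were thus not above those of the named genes. DESeq2 with the same covariate called 13 zinc finger genes, where it called 1568 of all 14290 genes. Without calf 3208 edgeR called 2, where 101 of all 14447 genes were called. It called 17 without calf 3213 (2187 of 14416 genes) and 11 without calf 5841 (1219 of 14500 genes). Age stayed a covariate in these fits. Without calf 3213 the ages were 102 to 104 days but for calf 5841 at 98, so age and that calf could hardly be told apart. With calf 3213 left out and no age covariate, edgeR called 0 (5 of 14416 genes).

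The genes are also given by table. Of 21 tested that the partial liver tables with expression do not hold, 16 were lower and 5 higher in IVP calves, and the median log2 fold change was -0.16. Of the 35 in those liver tables, 26 were lower and 9 higher with a median of -0.50. At an unadjusted p under 0.05 there were 3 of the 21 and 22 of the 35 (14.3% and 62.9%, against 29.8% of all genes and 57.4% of the named genes). A gene absent from a partial table is not shown to be free of selection on its liver expression.

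In muscle, higher and lower zinc finger genes were more even in number. Of 57 tested, 32 were higher and 25 lower in IVP calves, and the median log2 fold change was 0.10 against 0.02 over all 12854 genes. ZNF385D was the only gene with an FDR under 0.05 (1.75% of the zinc finger genes and 0.467% of all genes). At an unadjusted p under 0.05 there were 16, of which 10 were higher and 6 lower (28.1%, against 19.8% of all genes, 11.4% higher and 8.43% lower, and 29.9% of the named genes). Every IVP value was above every MOET value for 15 genes (10.4% of all genes) and below for 9 (8.66%), and groups did not overlap for 19% of all genes and 31.2% of the named genes. Of the 42 genes that the partial muscle table does not hold, 21 were higher and 21 lower, with a median of 0.00. No zinc finger gene was called without calf 3217, 3218, 5833 or 5932. Of all genes, 10 of 13015, 6 of 13049, 44 of 12911 and 19 of 12988 were then called. Without calf 3209 there were 2, where 350 of all 13018 genes were called.

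**Figure D1:**
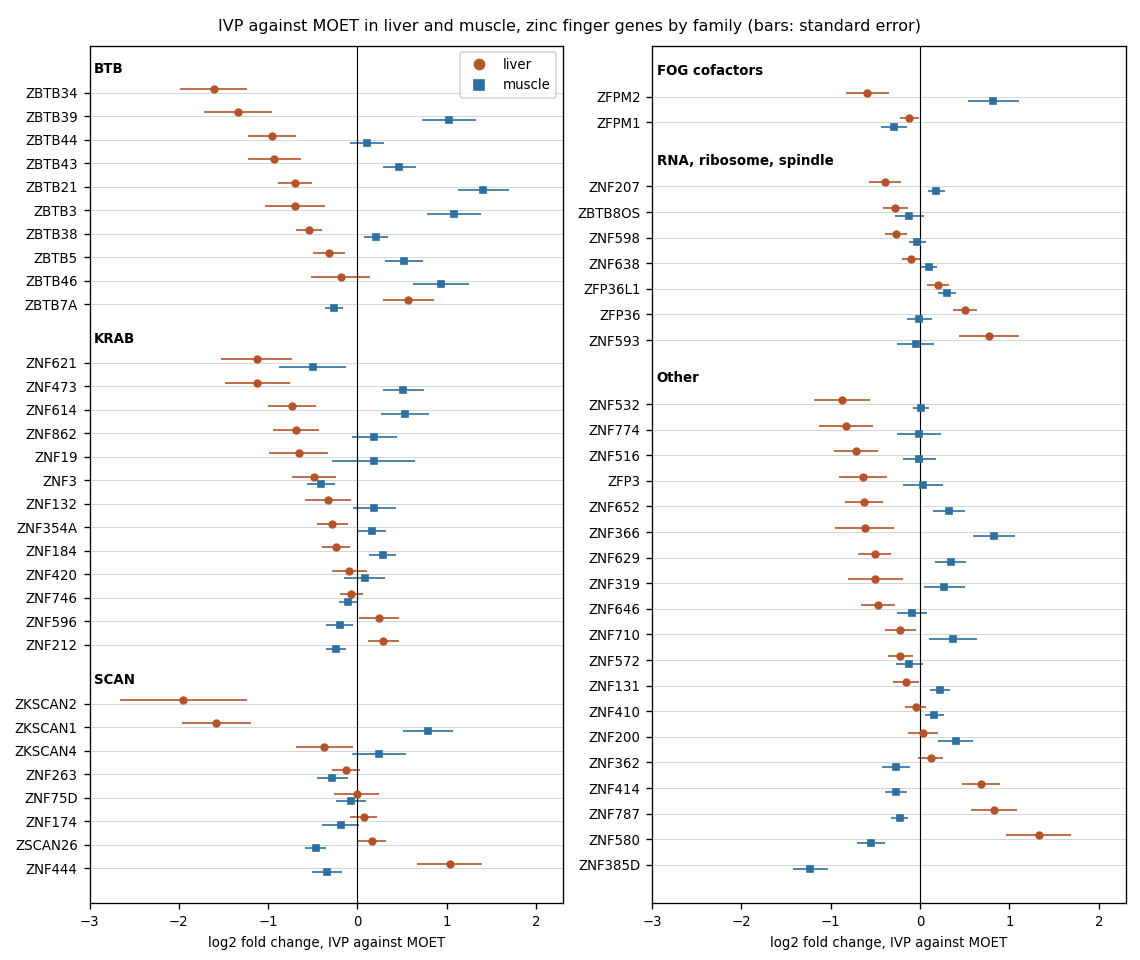
Log2 fold change of IVP against MOET calves (horizontal axis) for 59 zinc finger genes by group, with the standard error of the edgeR fit as bars, circles for liver and squares for muscle. ZNF536 was tested in neither organ and is not drawn. In liver 44 of 58 circles lie left of 0, and in muscle 32 of 57 squares lie right of it.

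The genes of the BTB group lay mostly at opposite sides in the organs. In liver 9 of the 10 were lower in IVP calves (median log2 fold change -0.70), and 6 had an unadjusted p under 0.05, 60%, against 29.8% of all genes and 57.4% of the named genes. In muscle 8 of the 9 tested were higher, with a median of 0.52, and 7 had an unadjusted p under 0.05, 6 higher and 1 lower, or 77.8% against 19.8% and 29.9%. No BTB gene had an FDR under 0.05 in either organ by edgeR's quasi-likelihood test. The exception in both organs was ZBTB7A. The mean log2(CPM + 0.1) over the 10 genes in liver was 2.26, 1.94, 1.98 and 1.48 in IVP and 2.75, 2.38 and 2.72 in MOET calves. Over the 9 genes tested in muscle it was 1.88, 1.81, 2.03 and 2.08 in IVP and 1.41, 1.27 and 1.46 in MOET calves. The groups did not overlap in either organ. All 10 genes stand in tables that rest at least in part on the expression of these same calves. That these means lay apart is thus a description and not independent evidence, and no such mean was set against all genes.

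The difference between the organs was tested as the log2 fold change of IVP against MOET in muscle minus that in liver, over all 16 libraries. This difference was called for 13 of 59 zinc finger genes, 22.0%, with 8 differences above 0 and 5 below, against 8.99% of all 15237 genes (4.74% above 0 and 4.25% below). It was called for 22.4% of the 3776 tested genes that the tables name, so the share of zinc finger genes was near that of all named genes. The median difference was 0.48, against 0.03 over all genes and -0.02 over the named genes, and 42 of 59 lay above 0 (71.2%, against 51.5% and 49.4%). The BTB group made up 5 of the 13. All 10 genes of that group had an unadjusted p under 0.05 for the difference, with a median of 1.23. This was so for 29.9% of all genes and 54.4% of the named genes. The group includes ZBTB34, whose muscle counts were too low for a test in muscle alone. With the calf as a block, 6 zinc finger genes were called, 5 of them among the 13, where 713 of all 15237 genes were called. The count was 0 without calf 3217, 3218 or 5932, where 1, 0 and 0 of all genes were called. It was 1 without calf 3209 (43 of all genes), 2 without calf 5833 (77) and 20 without calf 3213 (2164), with age kept as covariate. Without calf 3213 and without age it was 18 (1878). Among calves of the same dam and sire it was 0 (4 of all genes), with 58 of the 59 differences in the same direction.

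ZBTB21, a BTB transcriptional repressor (ENSBTAG00000030836), had the lowest FDR for this difference. In liver its level was 6.43, 4.51, 4.68 and 4.18 CPM in the IVP calves and 8.44, 7.10 and 8.78 CPM in the MOET calves. In muscle it was 2.53, 2.90, 4.47 and 4.31 CPM in the IVP calves and 0.958, 1.26 and 1.76 CPM in the MOET calves. Every IVP calf lay below every MOET calf in liver and above every one in muscle. The log2 fold change was -0.70 (SE 0.188, edgeR FDR = 0.125) in liver and 1.41 (SE 0.283, edgeR FDR = 0.0596) in muscle. An exact two-sided permutation test gave p = 0.0571 in each organ, the smallest value that 4 against 3 calves allow. The difference of 2.07 (SE 0.346, edgeR FDR = 0.0201) remained called with the calf as block (edgeR FDR = 0.0306). In the tables held here this gene stands in the combined table of muscle only.

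ZBTB39 (ENSBTAG00000038498) had the largest difference among BTB genes, at 2.33 (SE 0.523, edgeR FDR = 0.0326). Its liver level was 2.17, 1.30, 1.23 and 0.590 CPM in the IVP calves and 4.20, 2.37 and 3.74 CPM in the MOET calves. Its muscle level was 1.14, 0.895, 1.27 and 1.07 CPM in the IVP calves and 0.750, 0.377 and 0.486 CPM in the MOET calves. The groups did not overlap in either organ. ZBTB3 (ENSBTAG00000021329) lay in liver at 0.533, 0.477, 0.726 and 0.295 CPM in the IVP calves and 0.956, 0.653 and 0.916 CPM in the MOET calves, where the groups overlapped. In muscle ZBTB3 reached 1.39, 1.07, 1.02 and 1.58 CPM in the IVP calves and 0.625, 0.419 and 0.711 CPM in the MOET calves, without overlap. Its difference was 1.75 (SE 0.453, edgeR FDR = 0.0374), and with the calf as block the FDR was 0.0579.

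ZBTB43 (ENSBTAG00000003438) and ZBTB38 (ENSBTAG00000040061), a reader of methylated DNA, were also called for the difference. ZBTB43 in liver lay at 5.00, 3.21, 3.45 and 1.92 CPM in the IVP calves and 8.02, 5.30 and 6.49 CPM in the MOET calves, and in muscle at 3 ± 0.200 CPM (SD, n = 4) and 2.17 ± 0.443 CPM (SD, n = 3). Its difference was 1.37 (SE 0.367, edgeR FDR = 0.0390; 0.0505 with the calf as block). ZBTB38 in liver lay at 15.8, 13.5, 15.2 and 13.1 CPM in the IVP calves and 24.3, 18 and 20.7 CPM in the MOET calves, again without overlap. In muscle ZBTB38 differed by less, 10.3 ± 1.06 CPM (SD, n = 4) in IVP calves and 8.83 ± 1.07 CPM (SD, n = 3) in MOET calves. The difference of 0.71 (SE 0.200, edgeR FDR = 0.0428; 0.0689 with the calf as block) came mostly from the liver, with a log2 fold change of -0.54 there and 0.21 in muscle.

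ZBTB7A (ENSBTAG00000020117), a repressor of fetal globin genes, went the other way. Its liver level was 84.4, 88.6, 89.5 and 181 CPM in the IVP calves and 60.5, 76.5 and 80.1 CPM in the MOET calves, and calf 5841 stood far above the rest. Its muscle level was 46.0, 49.0, 46.3 and 47.9 CPM in the IVP calves and 55.9, 61.9 and 51.4 CPM in the MOET calves. The groups did not overlap in either organ. The log2 fold change was 0.57 (SE 0.285, edgeR FDR = 0.201) in liver, 0.28 without calf 5841, and -0.26 (SE 0.0984, edgeR FDR = 0.19) in muscle. The difference of -0.86 (SE 0.316) did not pass the test (edgeR FDR = 0.0858).

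Of the other BTB genes, ZBTB34 (ENSBTAG00000039343) had the lowest fold change of its group in liver. It lay at 1.52, 0.738, 0.772 and 0.442 CPM in the IVP calves and 3.32, 2.00 and 2.86 CPM in the MOET calves, a log2 fold change of -1.61 (SE 0.377, edgeR FDR = 0.125). In muscle it had at most 10 counts in a library and was not tested there. ZBTB46 (ENSBTAG00000016667), known from classical dendritic cells and endothelium, had groups apart in muscle and not in liver. In muscle it lay at 1.06, 1.19, 2.29 and 1.70 CPM in the IVP calves and 0.916, 0.713 and 0.823 CPM in the MOET calves. Its log2 fold change was 0.93 in muscle (SE 0.313, edgeR FDR = 0.151) and -0.19 in liver (SE 0.329, edgeR FDR = 0.71), where the groups overlapped. The summed endothelial markers CDH5, VWF and CLDN5 were 126 to 207 CPM in the muscle of IVP calves and 110 to 116 CPM in that of MOET calves, and CD74 with CSF1R 221 to 453 and 209 to 227 CPM. These markers did not all go one way in muscle. CDH5 and CLDN5 were higher in every IVP calf (log2 fold change 0.72 and 0.38), and VWF overlapped (0.26). CD74 and CSF1R overlapped and had opposite signs (0.43 and -0.24). IVP calf 5833 had the highest muscle value of each marker. Their part in the value of ZBTB46 was not tested. ZBTB5 and ZBTB44, named here only to complete the group, were lower in liver (-0.32 and -0.96) and higher in muscle (0.52 and 0.11).

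**Figure D2:**
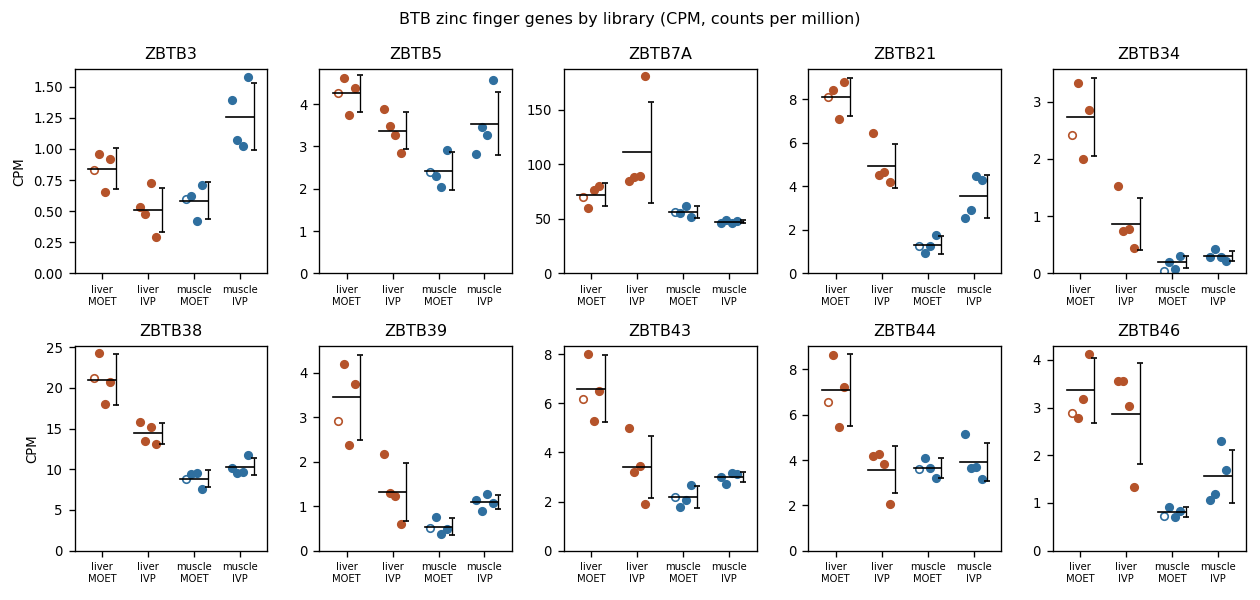
Level of the 10 BTB zinc finger genes by library in CPM (vertical axis, from 0), for liver and muscle of MOET and IVP calves. CPM are scaled within each organ. Points are calves, the open point is MOET calf 3213, lines are means and bars the SD without that calf. For 8 of the 9 genes tested in both organs IVP calves averaged below MOET calves in liver and above them in muscle, and ZBTB7A showed the reverse.

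The 13 genes of the KRAB group were mostly lower in the liver of IVP calves. The ZKSCAN genes also have a KRAB domain but were placed with the SCAN genes. In liver 11 were lower and 2 higher in IVP calves (median log2 fold change -0.33), and 4 had an unadjusted p under 0.05, all lower, 30.8% of the group against 29.8% of all genes and 57.4% of the named genes. In muscle 8 were higher and 5 lower, with a median of 0.16. Only ZNF3 had an unadjusted p under 0.05 there, 7.69% of the group against 19.8% of all genes and 29.9% of the named genes. ZNF473 (ENSBTAG00000012064), which takes part in the processing of histone pre-mRNA, was the only gene of this group called for the difference between organs (7.69%, against 8.99% of all genes and 22.4% of the named genes). Its liver level was 5.86, 4.12, 4.77 and 1.47 CPM in the IVP calves and 9.64, 8.53 and 9.01 CPM in the MOET calves, with no overlap. Its muscle level was 1.64, 1.92, 1.82 and 2.06 CPM in the IVP calves and 1, 1.26 and 1.65 CPM in the MOET calves, where the groups overlapped by IVP calf 3208. The difference was 1.60 (SE 0.466, edgeR FDR = 0.0472; 0.0574 with the calf as block). ZNF621 (ENSBTAG00000018057) had the lowest fold change of the KRAB genes in liver, with 1.19, 1.04, 1.27 and 0.295 CPM in the IVP calves and 2.29, 1.71 and 2.44 CPM in the MOET calves (-1.13, SE 0.394, edgeR FDR = 0.129). Its log2 fold change in muscle was also below 0, at -0.50 (SE 0.375), so the organs were not opposed. ZNF3 (ENSBTAG00000007012) likewise had log2 fold changes of -0.49 (liver) and -0.41 (muscle, SE 0.246 and 0.156). In muscle ZNF3 lay at 4.87, 5.62, 4.00 and 4.86 CPM in the IVP calves and 6.04, 5.75 and 7.44 CPM in the MOET calves (edgeR FDR = 0.19).

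The 8 SCAN genes were mixed. In liver 3 were higher and 5 lower in IVP calves (median log2 fold change -0.07), and in muscle 2 of 7 were higher and 5 lower (median -0.19). The difference between organs was called for 3 of the 8, or 37.5%, against 8.99% of all genes and 22.4% of the named genes. Of these, ZKSCAN1 lay above 0, and ZNF444 and ZSCAN26 lay below. ZKSCAN1 (ENSBTAG00000016757), a gene that in liver cells is also known as the host of a circular RNA, had a liver level of 11.8, 5.21, 6.31 and 3.78 CPM in the IVP calves and 23.8, 12.3 and 26.0 CPM in the MOET calves. Its muscle level was 0.818, 0.980, 1.24 and 1.14 CPM in the IVP calves and 0.708, 0.461 and 0.636 CPM in the MOET calves. The groups were apart in both organs, narrowly so in liver between IVP calf 3208 and MOET calf 3218. The log2 fold change was -1.58 in liver (SE 0.385, edgeR FDR = 0.125) and 0.79 in muscle (SE 0.282, edgeR FDR = 0.165), and the difference of 2.33 (SE 0.556, edgeR FDR = 0.0340) was kept with the calf as block (edgeR FDR = 0.0322). Libraries of polyadenylated RNA do not measure the circular form.

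ZSCAN26 (ENSBTAG00000031869) had groups apart in muscle. It lay there at 5.85, 7.03, 6.62 and 7.04 CPM in the IVP calves and 9, 9.23 and 9.24 CPM in the MOET calves. Its log2 fold change in muscle was -0.47 (SE 0.117, edgeR FDR = 0.0907), and in liver 0.16 (SE 0.164) with overlapping groups. The difference was -0.66 (SE 0.197, edgeR FDR = 0.0483; 0.0953 with the calf as block). ZNF444 (ENSBTAG00000046111), known as a regulator of an endothelial scavenger receptor gene, lay in liver at 19.4, 26.4, 21.0 and 53.9 CPM in the IVP calves and 11.4, 16.4 and 14.6 CPM in the MOET calves. In muscle its level was 16, 11.8, 12.0 and 12.0 CPM in the IVP calves and 15.1, 20.7 and 13.4 CPM in the MOET calves, where calf 3208 lay within the MOET range. The difference was -1.41 (SE 0.423), and its edgeR FDR lay just inside the threshold, at 0.05 after rounding (0.0592 with the calf as block). ZKSCAN2, lowest of all in liver at -1.95 (SE 0.712, edgeR FDR = 0.134), had 1 to 41 counts in a liver library and is named for its low depth.

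ZNF580 had the largest difference below 0. This small zinc finger gene (ENSBTAG00000047508) lay in liver at 4.87, 5.86, 4.68 and 12.1 CPM in the IVP calves and 2.33, 3.02 and 2.52 CPM in the MOET calves. In muscle it lay at 5.40, 5.67, 6.51 and 4.35 CPM in the IVP calves and 7.58, 9.27 and 7.37 CPM in the MOET calves. All IVP calves were above all MOET calves in liver and below them in muscle, the mirror of ZBTB21. The log2 fold change was 1.33 in liver (SE 0.364, edgeR FDR = 0.125) and -0.55 in muscle (SE 0.157, edgeR FDR = 0.112). An exact two-sided permutation test gave 0.0571 in each organ, again the smallest p possible. The difference was -1.90 (SE 0.405, edgeR FDR = 0.0284), and 0.0435 was the edgeR FDR with the calf as block.

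ZNF787 (ENSBTAG00000002904) and ZNF414 (ENSBTAG00000007660) had the same pattern. ZNF787 lay in liver at 20.4, 22.6, 21.2 and 39.6 CPM in the IVP calves and 11.6, 16.3 and 14.8 CPM in the MOET calves, and in muscle at 16.9, 15, 15.5 and 16.2 against 17.6, 18.7 and 19.6 CPM. ZNF414 lay in liver at 19.2, 22.1, 19.2 and 34.0 CPM in the IVP calves and 14.5, 14.4 and 14.4 CPM in the MOET calves, and in muscle at 7.40, 7.37, 8.55 and 6.63 against 8.75, 8.81 and 9.61 CPM. For both genes the groups were apart in both organs, and calf 5841 had the highest liver value. The differences were -1.09 (SE 0.283, edgeR FDR = 0.0379; 0.0459 with the calf as block) and -0.98 (SE 0.252, edgeR FDR = 0.0371; 0.0593 with the calf as block). ZNF787 and ZNF444 are next to each other among the protein-coding genes of the RefSeq annotation (ARS-UCD2.0), and their fold changes had the same sign in both organs. ZNF200 and ZNF263 are also next to each other, but their log2 fold changes had opposite signs. These were 0.03 and -0.13 in liver and 0.40 and -0.28 in muscle. In liver, 4 of the 5 genes with a difference called below 0 had their highest value in calf 5841, and ZSCAN26 was the exception, at 7.08 CPM the lowest IVP value.

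ZNF385D (ENSBTAG00000050535), of the ZNF385 family of zinc finger genes, fell in muscle. Its level there was 2.94, 5.28, 4.95 and 5.90 CPM in the IVP calves and 10.3, 10.8 and 12.2 CPM in the MOET calves, a wide gap. The means were 4.77 ± 1.28 CPM (SD, n = 4) and 11.1 ± 0.985 CPM (SD, n = 3). The log2 fold change was -1.23 (SE 0.197, edgeR FDR = 0.0286), and an exact two-sided permutation test gave 0.0571, its smallest possible p. It was between -1.34 and -1.05 when any calf was left out, and the FDR passed 0.05 without calf 3217 (0.0965), 3218 (0.157), 5833 (0.0516) or 5932 (0.123). In the tables held here it stands only in that of liver methylation, and the table of genes chosen by muscle expression was not used here. The liver held 0 to 3 counts of it per library, and no difference between the groups was detectable there at this depth. Fibroblast markers were also lower in the muscle of IVP calves, as given above, and their part in the value of ZNF385D was not tested.

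**Figure D3:**
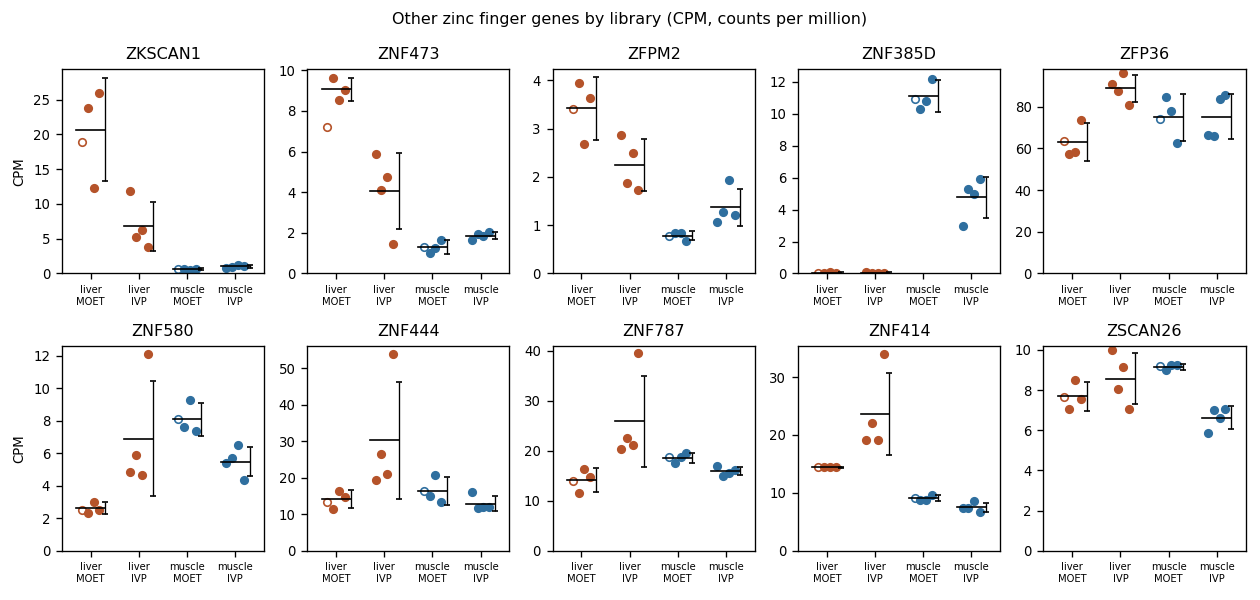
Level of 10 further zinc finger genes by library in CPM (vertical axis, from 0), for liver and muscle of MOET and IVP calves. CPM are scaled within each organ. Points are calves, the open point is MOET calf 3213, lines are means and bars the SD without that calf. ZKSCAN1 and ZNF580 had opposite directions in the organs, ZNF385D was near 0 in liver, and IVP calf 5841 was the highest liver point for ZNF580, ZNF444, ZNF787 and ZNF414.

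The FOG genes encode cofactors of GATA transcription factors and did not behave alike. ZFPM2 (ENSBTAG00000001649), also FOG2, lay in liver at 2.87, 1.87, 2.5 and 1.72 CPM in the IVP calves and 3.95, 2.69 and 3.63 CPM in the MOET calves. In muscle it lay at 1.06, 1.28, 1.93 and 1.22 CPM in the IVP calves and 0.833, 0.839 and 0.673 CPM in the MOET calves. The groups overlapped in liver through IVP calf 3208 and were apart in muscle. Its difference was 1.38 (SE 0.375, edgeR FDR = 0.0405; 0.0574 with the calf as block), and in the tables held here it stands only in that of liver methylation. ZFPM1 (ENSBTAG00000015766), also FOG1 and listed for both organs, was at 36.1 ± 1.44 against 39.2 ± 2.99 CPM in liver and 6.60 ± 0.785 against 8.09 ± 1.12 CPM in muscle (SD, n = 4 IVP and 3 MOET). Its log2 fold changes were -0.12 (SE 0.108) and -0.29 (SE 0.143), and neither passed the test.

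The 7 genes that act on RNA, ribosomes or the spindle had median log2 fold changes of -0.10 in liver and -0.01 in muscle. The difference between organs was called for none of them by edgeR, where 8.99% of all genes were called. At an unadjusted p under 0.05 there were 2, 28.6% of the group against 29.9% of all genes and 54.4% of the named genes. ZFP36 (ENSBTAG00000008573), which binds AU-rich elements and speeds the decay of inflammatory mRNAs, had the clearest values. It lay in liver at 90.6, 87.6, 96.0 and 80.8 CPM in the IVP calves and 57.1, 58.4 and 73.5 CPM in the MOET calves, without overlap, a log2 fold change of 0.50 (SE 0.132, edgeR FDR = 0.125). In muscle its means of 75.2 ± 10.6 and 74.9 ± 11.2 CPM (SD, n = 4 and 3) were close, and its small fold change of -0.01 had no stable sign over the alternatives. Its relative ZFP36L1 (ENSBTAG00000025434) was at 228 ± 20.6 against 199 ± 3.86 CPM in liver and at 54.5, 52.3, 62.6 and 53.1 against 47.7, 45.1 and 43.4 CPM in muscle. ZFP36L1 was thus higher in IVP calves in both organs, without overlap, by 0.20 (SE 0.120, edgeR FDR = 0.267) and 0.30 (SE 0.102, edgeR FDR = 0.157). The gap in liver was narrow, between 204 CPM in IVP calf 5841 and 203 CPM in MOET calf 3218.

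ZNF593 (ENSBTAG00000009562), a factor of ribosome assembly, lay in liver at 3.77, 5.21, 4.49 and 9.98 CPM in the IVP calves and 2.87, 3.67 and 3.40 CPM in the MOET calves, the highest again being calf 5841. The log2 fold change was 0.77 (SE 0.338, edgeR FDR = 0.168), 0.44 without that calf, and in muscle it was -0.05 (SE 0.204). ZNF598, the ubiquitin ligase that senses collided ribosomes, gave a fold change on the log2 scale of -0.27 in liver (SE 0.123, edgeR FDR = 0.18) and -0.03 in muscle (SE 0.0911). ZNF207, a spindle assembly factor that binds BUB3, had -0.39 in liver (SE 0.179, edgeR FDR = 0.176) and 0.18 in muscle (SE 0.0946). ZNF638, linked to splicing and fat cell development, had -0.10 and 0.10 (SE 0.101 and 0.0863). ZBTB8OS had -0.28 in liver (SE 0.141) and -0.12 in muscle (SE 0.161). The liver groups were apart for all 7 genes of this group, 3 with IVP calves above and 4 below, where 33.1% of all genes and 66% of the named genes were apart. For ZFP36L1, ZNF593 and ZNF638 the gap was narrow, for ZNF638 between 68.7 CPM in IVP calf 5841 and 69.1 CPM in MOET calf 5932.

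Among the remaining genes, 5 were higher and 13 lower in the liver of IVP calves (median log2 fold change -0.34), and 10 were higher and 9 lower in muscle (median 0.01). ZNF366 (ENSBTAG00000020601), known from dendritic cells, lay in muscle at 2.90, 2.39, 4.51 and 2.91 CPM in the IVP calves and 1.87, 1.80 and 1.72 CPM in the MOET calves, without overlap. Its log2 fold change there was 0.83 (SE 0.236, edgeR FDR = 0.112), and in liver -0.62 (SE 0.331, edgeR FDR = 0.227). It likewise stands only in the table of liver methylation, and the difference of 1.42 (SE 0.432) missed the threshold (edgeR FDR = 0.0524). ZNF516 (ENSBTAG00000004650), a regulator of the brown fat programme, was lower in IVP liver, with 9.05, 7.07, 7.81 and 4.13 against 12.3, 10 and 13.1 CPM and no overlap. Its log2 fold change was -0.72 in liver (SE 0.245, edgeR FDR = 0.127) and -0.01 in muscle (SE 0.184). ZNF536, a gene known from the nervous system, had at most 1 count in a liver library and 3 to 9 in a muscle library, and was tested in neither organ.

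For the 56 genes tested in liver and in muscle, the fold changes were opposed more often than not. There were 30 lower in liver and higher in muscle and 12 the reverse, while 12 were lower in both and 2, ZFP36L1 and ZNF200, higher in both. Among all 12007 genes with both tests these shares were 32.4% lower in liver and higher in muscle, 30.5% the reverse, 17.0% lower in both and 20.1% higher in both. Pearson's r between the fold changes was -0.55 and Spearman's rho -0.55 across the 56 genes, which share calves and libraries and are not independent. The part of the listing by organ in this pattern was not tested. Of the BTB genes 8 of 9 were lower in liver and higher in muscle, of the KRAB genes 8 of 13 and of the SCAN genes 2 of 7.

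The spread between calves is given by organ. In liver the median SD of log2 CPM over the 58 genes was 0.37 in IVP and 0.17 in MOET calves, and the IVP SD was the larger for 46 of them. Calf 5841 was the IVP calf farthest from the MOET mean for 46 of the 58 genes. Without it the liver log2 fold changes of ZNF444, ZNF366 and ZNF3 were 0.66, -0.40 and -0.32. In muscle the median SD was 0.20 and 0.18, with the larger SD in IVP calves for 32 of 57 genes.

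Between the organs themselves, 37 of 59 zinc finger genes differed with the calf as block, 62.7%, against 80.5% of all genes and 77.8% of the named genes. There were 15 higher in muscle and 22 higher in liver (38% and 42.5% of all genes), and the median log2 fold change of muscle against liver was -0.19. ZNF532 (ENSBTAG00000013588) had 41.9 ± 1.84 CPM in muscle and 3.57 ± 1.45 CPM in liver (SD, n = 7 calves, scaled over both organs), a log2 fold change of 3.59 (SE 0.204, edgeR FDR = 1.47e-08). ZNF774 followed with 2.15 (SE 0.207, edgeR FDR = 1.62e-06), and ZNF580 was higher in muscle by 1.39. ZNF385D was near the limit of detection in liver, with 72 to 327 counts per muscle library against 0 to 3 in liver. In the other direction ZKSCAN1 had a log2 fold change of -3.09, ZNF862 of -2.19, ZBTB34 of -2.04 and ZNF710 of -1.96, all higher in liver. No BTB gene but ZBTB34, ZBTB46 and ZBTB3 differed between the organs at an FDR under 0.05, of which ZBTB3 was higher in muscle. This contrast was not used in the choice of the genes.

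**Figure D4:**
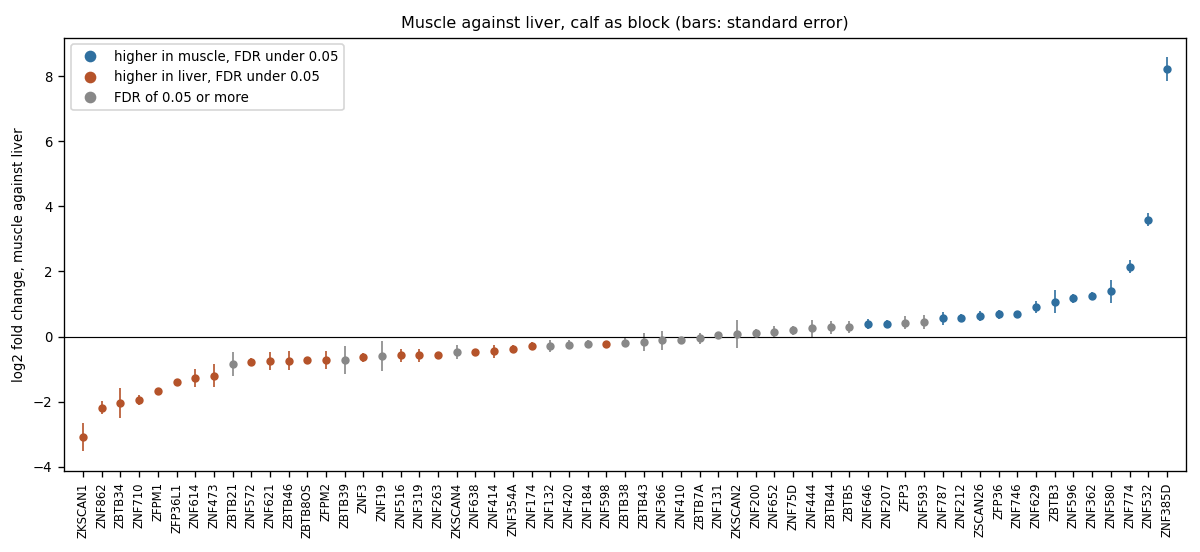
Log2 fold change of muscle against liver (vertical axis) for 59 zinc finger genes in ascending order, with the calf as block and the standard error as bars. Blue points are the 15 genes higher in muscle and brown points the 22 higher in liver at an FDR under 0.05, from ZKSCAN1 at -3.09 to ZNF385D at 8.22.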

How the data were processed

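For the deposited table the authors cleaned reads by SOAPnuke, mapped them by STAR (version 2.7) to bosTau9, counted per Ensembl gene (release 102) by HTSeq-count, and removed the effect of age by sva. The deposited values are whole numbers, taken as estimated counts because of that adjustment, where the design had assumed counts; rounding to whole numbers altered none. The number of unmapped sample columns was 0, and no ID is a total. Gene names came from the paper's supplementary tables, of which some are shortened here; their fold changes and p-values were not used. The genes and all lists were chosen with earlier results of these data known.

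Genes of an organ were filtered by filterByExpr (minimum count 10, minimum total 15) of edgeR (version 4.0.16, R 4.3.3) and scaled by TMM, and IVP was tested against MOET in the quasi-likelihood framework of edgeR, age being a covariate, with Benjamini-Hochberg adjustment over all genes and a threshold of 0.05. The difference between organs was fitted over 16 libraries with an age slope per organ, and muscle against liver with the calf as block. Exact permutation tests used scipy 1.17.1, and DESeq2 (version 1.42.0) was an alternative. Only the 4 main edgeR fits were tested on simulated data, which held no pairing by calf and no effect of age. Of 200 genes given a log2 change of 1, they called 48.5% in liver and 74.5% in muscle. For the difference between organs they called 28.5%, and for muscle against liver 89.5%. The other settings, DESeq2 and the calf as block for the difference among them, were not simulated.

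Named with values were genes past the threshold, the 4 largest rises and falls per organ among genes with a mean of at least 1 CPM, the 4 largest differences between organs in each direction, and 13 genes with known roles. Genes outside this rule (ZBTB5, ZBTB44, ZKSCAN2, ZNF200, ZNF263, ZNF536) were named after their values were seen. Each calf gave both organs, which pairs its libraries by design. The correlation of a calf's deviations in its 2 organs lay between -0.12 and 0.253. Each library is a separate calf and organ per the labels. Within an organ, the p-values of edgeR and DESeq2 measure the spread between calves. Unless calf 3213 is left out, they count it as a further replicate, which its small deviation does not bear out. The main test of the difference between organs took all libraries as independent. Its p-values thus measure the spread between libraries and ignore the pairing, which only the fit with the calf as block includes.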

Additional observations from a re-analysis of the deposited data

Results flagged for a closer look

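The pattern of IVP against MOET calves differed between the organs for 13 zinc finger genes by edgeR's quasi-likelihood test of the difference itself (muscle minus liver, on the log2 scale, Benjamini-Hochberg adjusted). These are 22% of the 59 tested, against 8.99% of all genes and 22.4% of the named genes, so the share was near that of the named genes. With the calf as block, 5 of the 13 stayed called. Differences above 0 were 2.33 for ZBTB39 (FDR 0.0326), 2.33 for ZKSCAN1 (FDR 0.034), 2.07 for ZBTB21 (FDR 0.0201), 1.75 for ZBTB3 (FDR 0.0374), 1.6 for ZNF473 (FDR 0.0472), 1.38 for ZFPM2 (FDR 0.0405), 1.37 for ZBTB43 (FDR 0.039) and 0.71 for ZBTB38 (FDR 0.0428). Differences below 0 were -1.9 for ZNF580 (FDR 0.0284), -1.41 for ZNF444 (FDR 0.05 after rounding), -1.09 for ZNF787 (FDR 0.0379), -0.98 for ZNF414 (FDR 0.0371) and -0.66 for ZSCAN26 (FDR 0.0483).

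Among the IVP calves, a single library lay far from the other three for 5 of 64 combinations of gene and organ checked with Dixon's test. Chance gives about 1 in 20 such groups. In liver calf 5841 had 181 CPM of ZBTB7A against 84.4 to 89.5 CPM in the other IVP calves, 12.1 CPM of ZNF580 against 4.68 to 5.86 CPM, 39.6 CPM of ZNF787 against 20.4 to 22.6 CPM, and 7.32 CPM of ZBTB8OS against 9.33 to 9.59 CPM. In muscle calf 3208 had 16 CPM of ZNF444 against 11.8 to 12 CPM.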

How the results depend on the processing

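The number of zinc finger genes called depended on the age covariate, the tool and single calves, while directions were mostly kept. In liver (0 called) DESeq2 called 13, edgeR without age 18 and DESeq2 without age 28, against 1568, 2998 and 4657 of all 14290 genes. Leaving out 1 calf gave 0 to 17, against 1 to 2187 of all genes. Without age and without calf 3213, edgeR called 0 in liver, 1 in muscle and 18 for the difference. Of all genes it then called 5, 83 and 1878. In muscle (1 called) the count was 2 with no filter (186 of all genes) and 0 at a mean of at least 5 CPM (24). It was 2 with DESeq2 (465), 9 without age (1174) and 10 with DESeq2 without age (1619). Among calves of 1 dam and 1 sire it was 0 (21), and with a calf left out 0 to 2 (6 to 350). For the difference between organs (13 called) it was 6 of 26 tested at a mean of at least 5 CPM (1315 of all 9654 genes). It was 22 with DESeq2 (2637 of all genes), 26 without age (4050) and 27 with DESeq2 without age (4566). Among calves of 1 dam and 1 sire it was 0 (4), and with a calf left out 0 to 20 (0 to 2514). With the calf as a replicate block, which pairs both organs of an animal, 6 were called (713 of all genes). They were ZBTB21, ZBTB39, ZKSCAN1, ZNF580, ZNF787 and, newly, ZBTB34 (edgeR FDR 0.0471). ZBTB34 had at most 10 counts in a muscle library and was not tested in muscle alone. Its difference sets the liver values against muscle counts near the floor. For muscle against liver (37 called) it was 19 of 26 tested at a mean of at least 5 CPM (8016 of all 9654 genes). With a calf left out it was 30 to 45 (11906 to 12779 of all genes). With a calf left out, 56 to 58 of 58 genes kept their direction in liver, 51 to 56 of 57 in muscle and 56 to 59 of 59 for the difference. The restriction to calves of 1 dam and 1 sire was chosen after seeing the data.

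Signs turned only for fold changes that were not called. In liver ZBTB46 was 0.02 without calf 5841 (-0.31 to 0.02 with any calf left out) and 0.25 among calves of 1 dam and 1 sire. In muscle ZFP36 was 0.01 with upper quartile factors, 0.02 at a mean of at least 5 CPM, 0.01 without age, 0.00 with DESeq2 without age and -0.12 to 0.09 with a calf left out, above 0 without calf 3208 (0.05), 3209 (0.05), 3217 (0.09) or 3218 (0.01). ZNF516 was 0.00 with upper quartile factors, 0.10 without calf 3208, 0.11 without calf 5932 (-0.10 to 0.11 over all calves) and 0.02 among calves of 1 dam and 1 sire. ZNF593 was 0.00 without calf 3208, 0.01 without calf 3213, 0.23 without calf 5932 (-0.19 to 0.23 over all calves) and 0.18 among calves of 1 dam and 1 sire. For the difference between organs ZNF385D, near 0 counts in liver, was 2.19 without calf 3208 and 0.41 without calf 5932 (lowest -1.45), ZNF3 was -0.09 without calf 3218 and -0.11 without calf 5841 (highest 0.20), ZBTB8OS was -0.01 without calf 5841 (highest 0.22), and ZFP36L1 was -0.02 among calves of 1 dam and 1 sire. The causes were not tested. Of 1545 alternative values for named genes 1308 kept direction and side of the threshold, 117 passed it newly, 96 no longer passed it and 24 changed sign. Calf 3213 adds almost no replication, and low counts limit ZKSCAN2, ZBTB34, ZNF385D and ZNF536.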

Other observations

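The tables name 51 further genes with zinc finger in the full name, such as those of the CCCH, DHHC or FYVE type. They are described by counts here, and none of them is among those 60. In liver 33 of 48 tested were lower and 15 higher in IVP calves (median log2 fold change -0.32), and 0 had an FDR under 0.05 by edgeR's quasi-likelihood test (27 at an unadjusted p under 0.05, 56.2%, against 29.8% of all genes and 57.4% of the named genes). In muscle 26 of 47 were higher and 21 lower, with a median of 0.07. DNLZ alone had an edgeR FDR under 0.05 there (0.03), 2.13% against 0.467% of all genes and 0.918% of the named genes. The difference between organs was called for 13 of 48, 27.1%, against 8.99% of all genes and 22.4% of all named genes. Among them ZC3HAV1, an antiviral factor that binds CpG-rich RNA, had a difference of 1.88 (FDR 0.0367) and ZHX3 of 1.01 (FDR 0.034), while ZNHIT1, a subunit of the SRCAP chromatin remodeller, had -1.34 (FDR 0.0379). These genes were named after their values were seen.

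Corepressors and partners of zinc finger proteins could be named for 11 of 52 genes listed. In liver 8 were lower and 3 higher in IVP calves (median log2 fold change -0.34), and 0 had an FDR under 0.05 by edgeR's quasi-likelihood test (9 at an unadjusted p under 0.05, 81.8%, against the same shares). The NuRD subunit GATAD2B had -0.96 in liver and 0.42 in muscle, the deadenylase scaffold CNOT1 -0.59 and 0.12, and the DNA methyltransferase DNMT1 -0.34 and -0.02. ATRX, a chromatin remodeller that acts with DAXX, had the reverse, 1.34 and -0.12. Its liver levels were 58.2, 75.2 and 65.4 CPM in IVP calves 3208, 3209 and 5833, 223 CPM in calf 5841 and 38.8, 46.2 and 31.9 CPM in the MOET calves. The difference between organs was called for 0 of 11 by the same test (8 at an unadjusted p under 0.05, 72.7%, against 29.9% of all genes and 54.4% of the named genes), with a lowest FDR of 0.0544.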
